A study of Homo sapiens with 9 samples.

Results

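The genes of the BCL2 family, the caspases and the death receptors were examined in RNA sequencing of HaCaT cells, a line of human keratinocytes. The 40 members were chosen by gene symbol. All 40 were among the 61311 genes of the count table, and 38 were expressed highly enough to be tested. The cells, which the labels describe as wild type and of skin origin, formed 3 groups of 3 libraries each. Control cells were not irradiated. UVA cells were exposed to UVA at 5 J/cm2. UVA and CT cells had this exposure too and were treated with CT, an extract of the plant Coreopsis tinctoria. No group with CT alone was analysed here. HaCaT is a single immortalized line, which limits it as a model of death genes in skin. The libraries held 16390289 to 21971215 counts, of which 45573 to 60588 fell on the members. Whether replicates came from separate cultures is stated neither in the labels nor in the methods, and each p-value therefore reflects only how far these particular libraries differed.

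All 12 keratinocyte markers examined, among them KRT5 and KRT14, had at least 10 counts in every library. Their summed level was 6479 to 7424 CPM (counts scaled by TMM to a common library size) in control, 5444 to 5898 CPM in UVA and 5594 to 5751 CPM in UVA and CT, with 9 of the 12 lower and 1 higher after UVA, and 6 lower and 2 higher after UVA and CT. Of all tested genes, 10.6% were lower and 10.5% higher after UVA, and 14.2% and 15.7% after UVA and CT. The part of the marker difference in the results below was not tested. Summed markers of fibroblasts, melanocytes, immune and endothelial cells stayed between 0.240 and 9.75 CPM, and PDGFRA, TYR and KDR were at 0 in every library. At least 10 counts in every library were held by 2 of 6 melanocyte and 2 of 4 endothelial markers. None of the fibroblast and immune markers did so. COL3A1 was lower in both comparisons with control, CDH5 higher after UVA and VWF lower after UVA and CT. The endothelial sums exceeded the levels of some members described below, such as BCL2 and BBC3.

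Cells die by apoptosis along a mitochondrial route and a death receptor route. In the mitochondrial route, BH3-only proteins neutralize the anti-apoptotic BCL2 proteins or activate BAX and BAK1, which permeabilize the outer mitochondrial membrane. Cytochrome c then leaves the mitochondrion and assembles with APAF1 into the apoptosome, which activates caspase-9. In the death receptor route, ligands such as TRAIL bind receptors on the cell surface, and the adaptor FADD recruits caspase-8 and caspase-10. IAP proteins and CFLAR restrain the caspases at several steps. In the epidermis, UV radiation is a classical trigger of keratinocyte apoptosis. Much of this control acts on proteins by cleavage, binding and release, which RNA levels do not measure.

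After UVA irradiation, members on both sides of the death decision changed. The TRAIL receptors TNFRSF10A and TNFRSF10B, the BH3-only genes PMAIP1 and BBC3, the cytochrome c gene CYCS and the protective genes BIRC3, XIAP, BCL2L1 and BCL2L2 were higher than in control cells. The TRAIL gene TNFSF10, the initiator caspase gene CASP10, the executioner CASP6, the apoptosome gene APAF1, the TNF receptor TNFRSF1A and the BH3-only gene BMF were lower. Thus 9 of the 38 tested members rose (23.7%, against 10.5% of all 15154 tested genes) and 6 fell (15.8%, against 10.6% of all tested genes), at an adjusted p under 0.05 in edgeR's quasi-likelihood test. The median log2 fold change was 0.08 over the tested members and 0.00 over all tested genes, and the median absolute log2 fold change was 0.19 against 0.16. The number that fell was 2 without control replicate 2 or without UVA replicate 2, and 3 without UVA replicate 3, where 7.11%, 7.03% and 7.31% of all tested genes fell. The members' share of falls was thus above that of all genes in the full set of libraries but near or below it in these settings. In a bulk sample, fewer cells that express a gene and less of its RNA per cell cannot be told apart.

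Cells given UVA and CT were compared with control cells in the same way. In this comparison, 9 members rose (23.7%, against 15.7% of all tested genes) and 9 fell (23.7%, against 14.2%). The median log2 fold change was 0.07 over the members and 0.00 over all tested genes, and the median absolute log2 fold change was 0.26 against 0.18. Both comparisons use the same 3 control libraries, so their results are given side by side and are not independent. Most changes were modest in size, among the members and among all genes. Log2 fold changes of the members ranged from -1.48 to 0.83 after UVA and from -1.65 to 0.89 after UVA and CT. A 2-fold difference was passed by 1 member (TNFSF10) and 2 members (TNFSF10 and BMF) in the respective comparison. Of all 15154 tested genes, 230 and 355 were called with a change over 2-fold. The median absolute log2 fold change of called members was 0.39 after UVA, against 0.32 over all called genes. After UVA and CT it was 0.36 against 0.33.

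**Figure D1:**
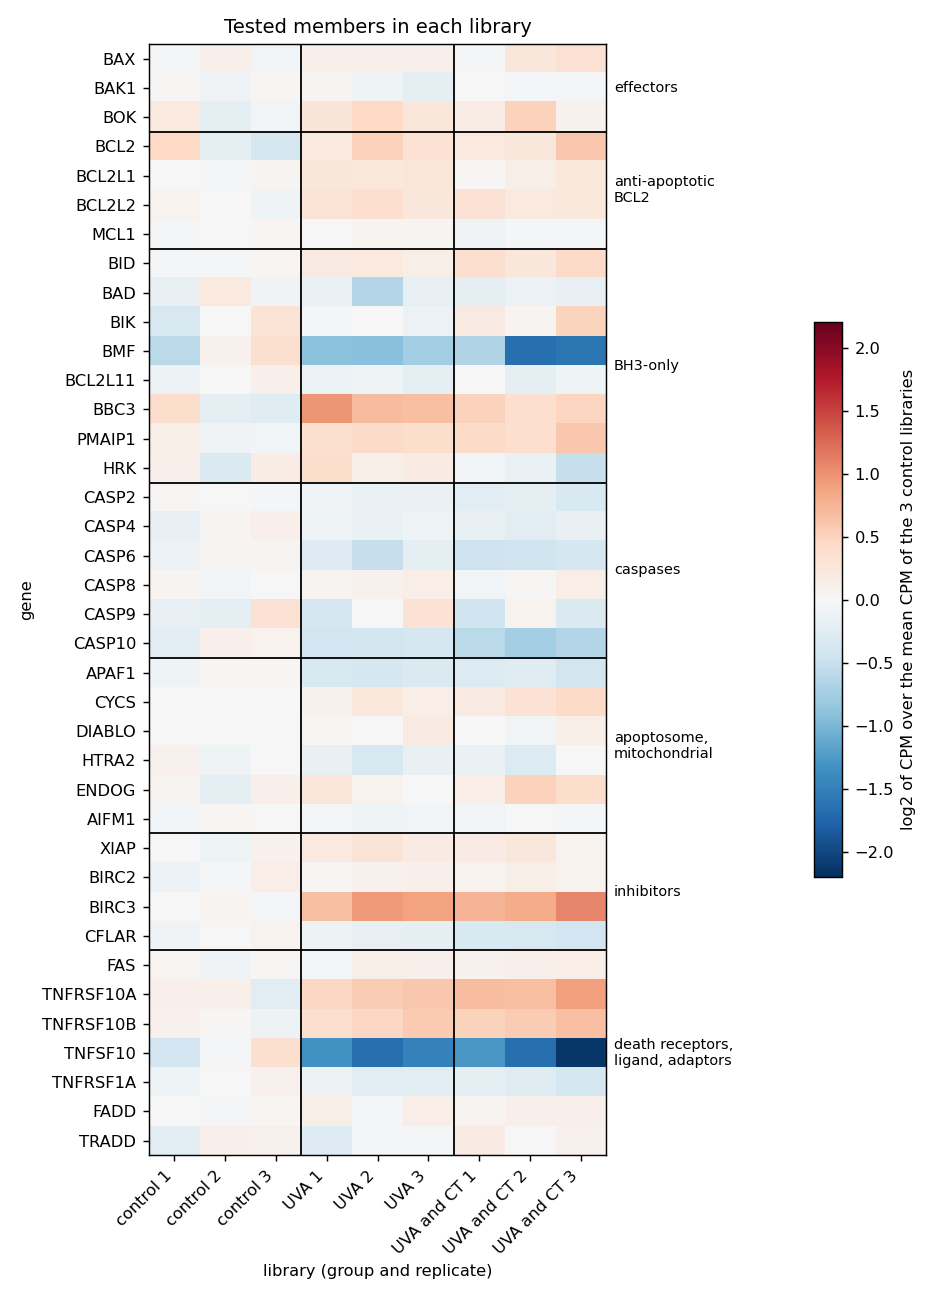
Colour shows log2 of the CPM in each library (columns, by group and replicate) over the mean CPM of the 3 control libraries, for the 38 tested members (rows, by role). TNFSF10 and BMF are the bluest rows in the irradiated libraries, BIRC3 and the TRAIL receptors are red in all 6 of them, and most other rows stay pale.

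Levels compared per length of exon sequence differed widely between members. MCL1 (127 CPM per kb) and CYCS (121 CPM per kb) had the highest levels in control cells, followed by TNFSF10 (51.3), AIFM1 (39.1), BCL2L1 (33.8) and TNFRSF1A (31.7 CPM per kb). BCL2 had 0.23 CPM per kb, and BBC3, CASP9 and BMF were also at the low end, at 0.51, 0.61 and 0.78 CPM per kb. BCL2A1, an anti-apoptotic gene best known from blood cells, had 0 or 1 count in each library. TNFRSF10D, a TRAIL receptor without a working death domain, had 0 to 4 counts. Neither was tested. TNFRSF10A, TNFRSF10B and TNFSF10 had 236 or more counts in every library.

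Among the anti-apoptotic BCL2 genes, BCL2L1 and BCL2L2 rose after UVA, and BCL2 and MCL1 did not pass the test. BCL2L1, which encodes BCL-xL, was at 111, 109 and 116 CPM in the control libraries, 134, 131 and 134 CPM in the UVA libraries and 114, 123 and 132 CPM in the UVA and CT libraries, listed here and below in the order of replicates 1 to 3. Every UVA library was above every control library, and the UVA and CT libraries spread from the control range into the UVA range. The log2 fold change (± SE, here and below) was 0.25 ± 0.05 (adjusted p = 0.00155) for UVA against control and 0.13 ± 0.05 (adjusted p = 0.0488) for UVA and CT against control. The latter call lay close to the threshold and was lost in 13 of the 17 alternative settings, with an adjusted p of 0.0735 by DESeq2, 0.0678 by limma-voom, 0.178 without control replicate 2, 0.0987 without control replicate 1, 0.111 without UVA and CT replicate 2 and 0.268 without UVA and CT replicate 3. Leaving out UVA replicate 1, 2 or 3, which are not among the groups compared but enter the filter, the scaling and the shared spread, gave 0.0623, 0.0598 and 0.0663.

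BCL2L2, the gene of BCL-w, stood at 53.5, 51.5 and 47.8 CPM in the control libraries, 62.9, 65.9 and 60.8 CPM in the UVA libraries and 63.5, 59.0 and 60.0 CPM in the UVA and CT libraries. All 6 irradiated libraries lay above the 3 control libraries. It rose by 0.31 ± 0.06 (adjusted p = 0.000903) on the log2 scale after UVA and by 0.25 ± 0.06 (adjusted p = 0.0026) after UVA and CT. Its exons share 813 bases on the same strand with the read-through gene BCL2L2-PABPN1, which held 45 to 124 counts, so reads of these genes may have been split by the counting.

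MCL1, the gene of a short-lived anti-apoptotic protein, was at 537, 559 and 572 CPM in the control libraries, 554, 579.6 and 577 CPM in the UVA libraries and 529, 544 and 539 CPM in the UVA and CT libraries. Its groups overlapped in both comparisons with control. The log2 fold change was 0.04 ± 0.04 (adjusted p = 0.545) after UVA, with a 95% interval of -0.04 to 0.11, and -0.05 ± 0.04 (adjusted p = 0.353) after UVA and CT, with an interval of -0.13 to 0.03. BCL2, the founding member of the family, was at 3.70, 2.38 and 2.12 CPM in the control libraries, 3.17, 3.90 and 3.43 CPM in the UVA libraries and 3.17, 3.24 and 4.11 CPM in the UVA and CT libraries, from 36 to 88 counts per library. Control replicate 1 lay inside the range of the irradiated libraries and the other control libraries lay below it. The log2 fold changes of 0.34 ± 0.22 (adjusted p = 0.306) and 0.35 ± 0.22 (adjusted p = 0.252) did not pass the test. Without control replicate 1, the adjusted p for BCL2 in UVA and CT against control was 0.0448.

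The pore-forming effector genes BAX, BAK1 and BOK did not pass the test in any comparison. BAX was at 27.6, 30.6 and 27.2 CPM in the control libraries, 30.8, 30.7 and 30.9 CPM in the UVA libraries and 28.0, 34.0 and 35.7 CPM in the UVA and CT libraries. The UVA libraries were almost level with each other and just above the highest control library, and UVA and CT replicate 1 lay among the controls. The log2 fold change was 0.11 ± 0.08 (adjusted p = 0.378) after UVA and 0.19 ± 0.08 (adjusted p = 0.0864) after UVA and CT. Without UVA and CT replicate 1, the latter comparison gave an adjusted p of 0.00651 and a log2 fold change of 0.29. BAK1 was at 42.8, 39.8 and 42.9 CPM in the control libraries, 43.6, 39.3 and 36.0 CPM in the UVA libraries and 41.3, 40.9 and 41.3 CPM in the UVA and CT libraries, with overlapping groups. Its 95% intervals were -0.22 to 0.07 after UVA and -0.17 to 0.12 after UVA and CT. BOK, a relative of BAX and BAK1, had log2 fold changes of 0.32 ± 0.16 (adjusted p = 0.169) and 0.26 ± 0.16 (adjusted p = 0.232).

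The balance of BAX to BCL2 was taken as the ratio of their counts in each library, as a description with no test. The log2 ratio was 2.90, 3.69 and 3.68 in control, 3.28, 2.98 and 3.17 in UVA, and 3.14, 3.39 and 3.12 in UVA and CT. Control replicate 1 was the lowest of the 9 libraries and the other control libraries were the highest. The group means were 3.42 ± 0.46 (SD), 3.15 ± 0.15 and 3.22 ± 0.15 from 3 libraries each, so the means differed by less than the spread among the control libraries.

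**Figure D2:**
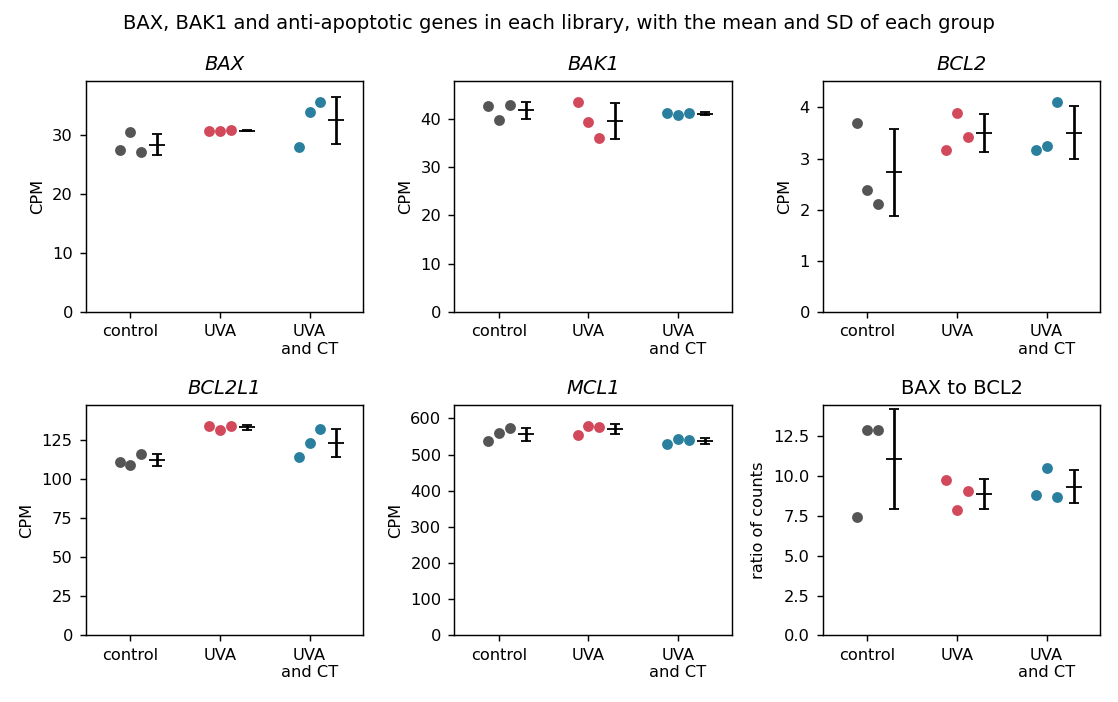
CPM of BAX, BAK1, BCL2, BCL2L1 and MCL1 and the ratio of BAX to BCL2 counts (vertical axes, from 0) in each library (dots) of control, UVA, and UVA and CT cells, with the group mean and SD (black). BCL2L1 is the panel in which the UVA libraries clear the control libraries by most, and the ratio of BAX to BCL2 is spread most widely among the control libraries.

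Of the 8 BH3-only genes, which encode sensors of stress and damage, 2 rose and 1 fell after UVA. Beside them, 10.5% of all tested genes rose and 10.6% fell, and counts in a group this small are not read as a trait of its role. PMAIP1, the gene of NOXA, a partner of MCL1, was at 62.6, 54.7 and 54.9 CPM in the control libraries, 73.4, 76.6 and 75.2 CPM in the UVA libraries and 76.8, 74.1 and 86.8 CPM in the UVA and CT libraries. All 6 irradiated libraries were above all control libraries. It rose by 0.39 ± 0.07 (adjusted p = 0.000323) on the log2 scale after UVA and by 0.46 ± 0.06 (adjusted p = 2.62e-05) after UVA and CT, calls kept in all 17 alternative settings. BBC3, the gene of PUMA, was at 2.11, 1.41 and 1.35 CPM in the control libraries, 3.17, 2.62 and 2.56 CPM in the UVA libraries and 2.31, 2.09 and 2.24 CPM in the UVA and CT libraries, from 23 to 57 counts per library. Every UVA library exceeded every control library, whereas the UVA and CT libraries overlapped control. The log2 fold change was 0.77 ± 0.25 (adjusted p = 0.0306) after UVA and 0.44 ± 0.25 (adjusted p = 0.198) after UVA and CT. The UVA call was lost in 6 of 17 settings, with an adjusted p of 0.115 and 0.121 without control replicate 2 or 3, and of 0.105, 0.0558 and 0.0521 without UVA replicate 1, 2 or 3.

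BMF, the gene of a BH3-only protein held at the cytoskeleton, was at 2.83, 4.54 and 5.41 CPM in the control libraries, 2.28, 2.25 and 2.51 CPM in the UVA libraries and 2.69, 1.35 and 1.40 CPM in the UVA and CT libraries, from 27 to 92 counts per library. The control libraries spread widely and all lay above the irradiated ones. BMF fell, with log2 fold changes of -0.85 ± 0.27 (adjusted p = 0.0308) after UVA and -1.22 ± 0.28 (adjusted p = 0.00225) after UVA and CT. The UVA call was lost in 7 of 17 settings, with an adjusted p of 0.103 and 0.156 without control replicate 2 or 3, and of 0.0899, 0.105 and 0.0769 without UVA replicate 1, 2 or 3. BID, whose protein is cut by caspase-8 and links the death receptor route to mitochondria, was at 33.1, 33.3 and 34.9 CPM in the control libraries, 38.7, 39.0 and 37.0 CPM in the UVA libraries and 43.5, 40.3 and 45.1 CPM in the UVA and CT libraries. The groups did not overlap in any comparison. BID missed the threshold after UVA with 0.18 ± 0.07 (adjusted p = 0.0595) and rose after UVA and CT with 0.35 ± 0.06 (adjusted p = 0.000415). UVA and CT did not pass against UVA, with 0.17 ± 0.06 (adjusted p = 0.233). BAD, BIK, BCL2L11 (BIM) and HRK did not pass in any comparison, with log2 fold changes of -0.30 to 0.23 after UVA and -0.23 to 0.27 after UVA and CT. BAD and BCL2L11 overlap exons of GPR137 (193 to 277 counts) and MIR4435-2HG (1185 to 1943 counts) on the opposite strand.

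The promoter of PMAIP1 is shown because PMAIP1 rose with the most counts behind it among the BH3-only genes. PMAIP1 lies at chr18:59899948-59904306 on the plus strand of GRCh38 in the GENCODE annotation. Its RefSeq start lies inside that range, so the window below overlaps the gene as placed by GENCODE. The 250 bases before its RefSeq start (GRCh38.p14, chr18:59899746-59899995, plus strand, 5′ to 3′) are printed with matches to the GC box, GGGCGG on either strand, in capitals.
PMAIP1: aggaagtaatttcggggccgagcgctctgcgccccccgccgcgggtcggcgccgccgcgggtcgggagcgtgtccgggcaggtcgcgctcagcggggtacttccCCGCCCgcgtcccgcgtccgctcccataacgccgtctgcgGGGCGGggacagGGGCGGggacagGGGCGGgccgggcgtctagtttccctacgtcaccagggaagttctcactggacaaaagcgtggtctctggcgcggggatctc
The window was 72.8% G and C and held 4 GC boxes, which begin 146, 106, 94 and 82 bases before the start. GC boxes were in 42.6% of the 35116 RefSeq windows of this length and in 34 of the 55 windows found for members, so they are not particular to PMAIP1. A match is a run of letters and was not tested as a binding site.

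Among the 6 caspase genes, none rose and CASP10 and CASP6 fell after UVA, while CASP10, CASP6, CASP2 and CASP4 fell after UVA and CT. Of all tested genes, 10.5% rose and 10.6% fell after UVA, and 15.7% and 14.2% after UVA and CT. CASP10, an initiator of the death receptor route, was at 16.1, 20.4 and 20.0 CPM in the control libraries, 14.1, 14.2 and 14.3 CPM in the UVA libraries and 12.5, 11.2 and 12.1 CPM in the UVA and CT libraries. The groups formed separate steps, with control highest and UVA and CT lowest. CASP10 fell, with log2 fold changes of -0.40 ± 0.10 (adjusted p = 0.00762) after UVA and -0.65 ± 0.10 (adjusted p = 8.56e-05) after UVA and CT. Without control replicate 2, the adjusted p of the UVA comparison was 0.0552. The step from UVA to UVA and CT did not pass the test, with -0.25 ± 0.11 (adjusted p = 0.293).

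CASP6, an executioner caspase, was at 25.7, 29.5 and 29.3 CPM in the control libraries, 23.3, 19.7 and 24.2 CPM in the UVA libraries and 20.7, 20.8 and 21.6 CPM in the UVA and CT libraries. All irradiated libraries were below the lowest control library. The log2 fold change was -0.33 ± 0.09 (adjusted p = 0.0101) after UVA and -0.42 ± 0.09 (adjusted p = 0.000906) after UVA and CT. The UVA call was lost without control replicate 2 (adjusted p = 0.0559) or UVA replicate 2 (0.0700). CASP6 shares 105 exon bases with MCUB on the opposite strand, which held 182 to 292 counts. CASP2, a caspase linked to DNA damage and mitotic stress, was at 86.7, 84.0 and 83.7 CPM in the control libraries, 80.4, 76.4 and 76.3 CPM in the UVA libraries and 71.7, 73.2 and 67.0 CPM in the UVA and CT libraries. The groups again stood in separate steps. The log2 fold change missed the threshold after UVA with -0.13 ± 0.05 (adjusted p = 0.0822) and passed after UVA and CT with -0.26 ± 0.05 (adjusted p = 0.000519). From UVA to UVA and CT the step did not pass, with -0.14 ± 0.05 (adjusted p = 0.214).

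CASP4, an inflammatory caspase that senses intracellular lipopolysaccharide, was at 79.3, 93.1 and 96.3 CPM in the control libraries, 83.4, 80.8 and 84.4 CPM in the UVA libraries and 79.9, 75.4 and 79.8 CPM in the UVA and CT libraries. Control replicate 1 lay within the irradiated range. CASP4 fell after UVA and CT with -0.19 ± 0.06 (adjusted p = 0.0211), and this call was lost without control replicate 2 (adjusted p = 0.0946), control replicate 3 (0.116) or UVA and CT replicate 2 (0.0915). After UVA the log2 fold change was -0.11 ± 0.06 (adjusted p = 0.217), with an adjusted p of 0.0127 without control replicate 1. CASP8, the main initiator of the death receptor route, was within 46.4 to 54.1 CPM in all libraries, and its log2 fold changes were 0.10 ± 0.06 (adjusted p = 0.292) and 0.04 ± 0.06 (adjusted p = 0.681). CASP9, the initiator of the apoptosome, had 44 to 78 counts per library and wide intervals, -0.47 to 0.49 after UVA and -0.69 to 0.28 after UVA and CT.

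Some members also share a position. CFLAR (chr2:201116104-201176687), CASP10 (chr2:201182881-201229406) and CASP8 (chr2:201233443-201287711) lie side by side on the plus strand of chromosome 2. CFLAR and CASP10 fell after UVA and CT while CASP8 did not pass the test. BIRC3 (chr11:102317450-102339403) and BIRC2 (chr11:102347211-102378670) are neighbours on chromosome 11, and BIRC3 rose while BIRC2 did not pass. The differences between the neighbouring genes were not tested.

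In the mitochondrial and apoptosome group of 6 genes, CYCS rose and APAF1 fell in both comparisons with control. Shares of all tested genes that rose and fell were 10.5% and 10.6% after UVA, and 15.7% and 14.2% after UVA and CT. APAF1, the scaffold of the apoptosome, was at 63.1, 69.6 and 69.3 CPM in the control libraries, 53.5, 51.9 and 54.0 CPM in the UVA libraries and 55.0, 55.8 and 51.1 CPM in the UVA and CT libraries. Every irradiated library was below every control library. APAF1 changed by -0.34 ± 0.06 (adjusted p = 0.000363) on the log2 scale after UVA and by -0.32 ± 0.06 (adjusted p = 0.000317) after UVA and CT, and both calls were kept in all 17 settings. CYCS, which encodes cytochrome c, a component of the respiratory chain as well as of the apoptosome, was at 539, 538 and 543 CPM in the control libraries, 576, 635 and 600.0 CPM in the UVA libraries and 620.2, 670.3 and 719 CPM in the UVA and CT libraries. The control libraries were nearly equal and all irradiated libraries lay above them. CYCS rose by 0.16 ± 0.05 (adjusted p = 0.0204) after UVA and by 0.31 ± 0.05 (adjusted p = 8.17e-05) after UVA and CT. The UVA call was lost without control replicate 2 (adjusted p = 0.0661), UVA replicate 2 (0.110) or UVA replicate 3 (0.0638). The 42 CYCS pseudogene rows of the table held 2 to 7 counts in sum per library, and the handling of reads shared with them is not stated.

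The genes of the other mitochondrial death factors did not pass the test. DIABLO, the gene of the IAP antagonist SMAC, and AIFM1, the gene of apoptosis-inducing factor, had 95% intervals of -0.06 to 0.25 and -0.15 to 0.04 after UVA. HTRA2, a mitochondrial protease gene, had -0.22 ± 0.10 (adjusted p = 0.115) after UVA. ENDOG, a mitochondrial nuclease gene, had 0.36 ± 0.14 (adjusted p = 0.0516) after UVA and CT. HTRA2 and ENDOG overlap the exons of AUP1 and SPOUT1 on the opposite strand, which held 841 to 1316 and 681 to 1114 counts, and without the strand of counting their reads cannot be told apart.

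The genes that restrain caspases did not move as a block. After UVA 2 of the 4 rose and none fell, beside 10.5% and 10.6% of all tested genes. BIRC3, which encodes the ubiquitin ligase cIAP2, had the largest rise of the 38 tested members in both comparisons with control. It was at 34.4, 35.9 and 33.6 CPM in the control libraries, 54.9, 66.4 and 64.1 CPM in the UVA libraries and 58.3, 61.2 and 73.4 CPM in the UVA and CT libraries. The control libraries lay within a narrow band and every irradiated library was far above it. BIRC3 rose by 0.83 ± 0.09 (adjusted p = 2.24e-05) on the log2 scale after UVA, or 1.78-fold, and by 0.89 ± 0.09 (adjusted p = 5.16e-06) after UVA and CT, or 1.86-fold. Both calls were kept in all 17 settings. UVA and CT did not pass against UVA, with a 95% interval of -0.12 to 0.24.

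BIRC3 lies at chr11:102317450-102339403 on the plus strand of GRCh38 in GENCODE, and its RefSeq start lies inside that range. Its promoter is shown because of this rise. The 250 bases before the RefSeq start (GRCh38.p14, chr11:102317234-102317483, plus strand, 5′ to 3′) have matches to the NF-kappaB motif in capitals.
BIRC3: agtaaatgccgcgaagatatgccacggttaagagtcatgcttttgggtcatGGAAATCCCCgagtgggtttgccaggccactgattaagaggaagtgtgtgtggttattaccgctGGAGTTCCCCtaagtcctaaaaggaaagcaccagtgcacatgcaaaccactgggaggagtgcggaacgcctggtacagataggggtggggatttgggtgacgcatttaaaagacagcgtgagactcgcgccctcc
The window held 2 NF-kappaB matches, 199 to 190 and 135 to 126 bases before the start. The motif, searched on both strands, was in 9.96% of the 35116 RefSeq windows and in 5 of the 55 windows found for members. BIRC3 is a textbook NF-kappaB target. No factor was measured on this promoter here.

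XIAP, which encodes a direct inhibitor of caspases, was at 85.9, 81.2 and 92.1 CPM in the control libraries, 99.7, 105 and 98.3 CPM in the UVA libraries and 97.9, 102 and 91.6 CPM in the UVA and CT libraries. The UVA libraries were above all control libraries, and UVA and CT replicate 3 lay just below control replicate 3. XIAP rose by 0.22 ± 0.05 (adjusted p = 0.00596) after UVA and by 0.17 ± 0.05 (adjusted p = 0.0206) after UVA and CT. Without control replicate 2 the adjusted p was 0.0526 after UVA and 0.145 after UVA and CT, and without UVA and CT replicate 2 it was 0.131 in the latter. BIRC2, the gene of cIAP1, had log2 fold changes of 0.08 ± 0.06 (adjusted p = 0.36) and 0.10 ± 0.06 (adjusted p = 0.216). CFLAR, the gene of cFLIP, the decoy that competes with caspase-8 at death receptors, was at 39.1, 41.2 and 44.0 CPM in the control libraries, 38.5, 36.6 and 36.1 CPM in the UVA libraries and 32.8, 32.5 and 31.0 CPM in the UVA and CT libraries. Its groups stood in descending steps from control to UVA and CT. It missed the threshold after UVA with -0.16 ± 0.07 (adjusted p = 0.0924) and fell after UVA and CT with -0.37 ± 0.07 (adjusted p = 0.000302). The step from UVA to UVA and CT did not pass, with -0.21 ± 0.07 (adjusted p = 0.142).

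The TRAIL axis showed opposite changes of ligand and receptors. TNFSF10, the gene of TRAIL, fell further than any other tested member in both comparisons with control, whereas the genes of its death-signalling receptors, TNFRSF10A (DR4) and TNFRSF10B (DR5), rose. TNFSF10 was at 133, 175 and 226 CPM in the control libraries, 71.2, 56.8 and 63.9 CPM in the UVA libraries and 73.2, 56.5 and 40.4 CPM in the UVA and CT libraries. The control libraries differed among themselves, replicate 3 being highest, but the lowest of them was far above every irradiated library. TNFSF10 fell to 0.360 of the control level after UVA and to 0.318 of it after UVA and CT, on the log2 scale -1.48 ± 0.28 (adjusted p = 0.0123) and -1.65 ± 0.28 (adjusted p = 0.00549). Without UVA replicate 2 or 3 the adjusted p of the UVA comparison was 0.0541 and 0.0515.

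TNFRSF10B was at 57.2, 54.6 and 49.6 CPM in the control libraries, 69.8, 74.0 and 80.1 CPM in the UVA libraries and 76.8, 79.2 and 84.8 CPM in the UVA and CT libraries. All irradiated libraries were above all control libraries. It rose by 0.47 ± 0.06 (adjusted p = 4.49e-05) on the log2 scale after UVA and by 0.58 ± 0.06 (adjusted p = 2.22e-06) after UVA and CT. TNFRSF10A was at 17.9, 17.8 and 13.9 CPM in the control libraries, 22.8, 24.3 and 25.0 CPM in the UVA libraries and 26.4, 26.3 and 30.9 CPM in the UVA and CT libraries. The groups formed ascending steps without overlap. It rose by 0.54 ± 0.10 (adjusted p = 0.000709) after UVA and by 0.75 ± 0.10 (adjusted p = 1.3e-05) after UVA and CT, and the step from UVA to UVA and CT did not pass, with 0.21 ± 0.09 (adjusted p = 0.324). The receptor calls were kept in all 17 settings. TNFRSF10B shares 67 exon bases with RHOBTB2 on the opposite strand, which held 299 to 658 counts, and TNFRSF10A shares 224 with its antisense gene TNFRSF10A-AS1, which held 34 to 70.

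TNFSF10 lies at chr3:172505508-172523507 on the minus strand of GRCh38 in GENCODE, and its RefSeq start lies inside that range. Its promoter is shown because TNFSF10 had the largest fall among the members. The 250 bases before the RefSeq start (GRCh38.p14, chr3:172523431-172523680, minus strand, 5′ to 3′) are in lower case throughout, since no searched motif matched.
TNFSF10: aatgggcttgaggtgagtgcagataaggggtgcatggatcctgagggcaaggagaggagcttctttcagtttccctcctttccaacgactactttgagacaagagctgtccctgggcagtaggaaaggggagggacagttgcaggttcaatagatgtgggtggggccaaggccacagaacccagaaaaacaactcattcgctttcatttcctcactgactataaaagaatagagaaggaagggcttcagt
Besides the NF-kappaB motif and the GC box, the motifs searched on both strands were AP-1 (TGANTCA), C/EBP-ATF (TGATGNAA), CRE (TGACGTCA) and GAS (TTCNNNGAA), in which N is any base. They were in 6.57%, 3.14%, 1.65% and 6.57% of the 35116 windows. The absence of a match says only that these letters are not in this window.

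TNFRSF1A, the main TNF receptor gene, was at 119, 127 and 135 CPM in the control libraries, 118, 107 and 107 CPM in the UVA libraries and 109, 105 and 97.6 CPM in the UVA and CT libraries. UVA replicate 1 lay just below the lowest control library, and the UVA and CT libraries were lower than all controls. TNFRSF1A fell, with log2 fold changes of -0.20 ± 0.06 (adjusted p = 0.015) after UVA and -0.29 ± 0.06 (adjusted p = 0.000652) after UVA and CT. The UVA call was lost without control replicate 2 or 3 (adjusted p = 0.0572 and 0.0887) and without UVA replicate 2 or 3 (0.0843 and 0.0834). FAS, the receptor of FAS ligand, had 0.07 ± 0.08 (adjusted p = 0.585) after UVA and 0.12 ± 0.08 (adjusted p = 0.265) after UVA and CT. The adaptor genes FADD and TRADD did not pass either, with log2 fold changes of 0.09 ± 0.06 (adjusted p = 0.365) and -0.11 ± 0.13 (adjusted p = 0.624) after UVA.

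**Figure D3:**
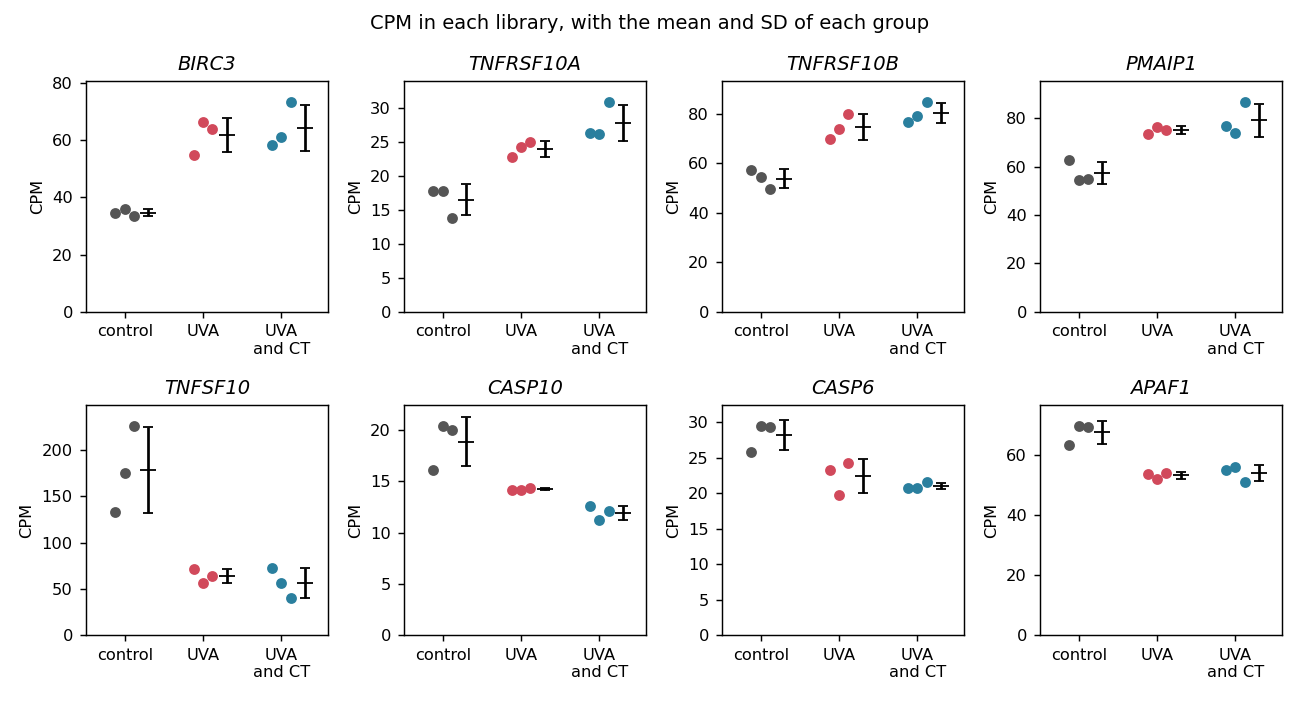
CPM (vertical axes, from 0) of 8 members called in both comparisons with control, in each library (dots) of control, UVA, and UVA and CT cells, with the group mean and SD (black). BIRC3, both TRAIL receptors and PMAIP1 step up from control and TNFSF10, CASP10, CASP6 and APAF1 step down, with no irradiated library inside the control range.

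The comparison of UVA and CT with UVA asks what CT added to irradiated cells. No member passed edgeR's quasi-likelihood test in either direction, beside 0.944% of all tested genes that rose (143) and 0.614% that fell (93). Scaled by library size only, 117 and 116 genes were called. At an unadjusted p under 0.05 there were 3 of 38 members higher and 6 lower, beside 7.40% and 5.79% of all tested genes. The share of members lower was above that of all genes at this looser threshold. DESeq2 called 0 members in each direction, beside 1.19% of all tested genes higher and 0.845% lower. By limma-voom 0 members were called as well, beside 0.739% and 0.515%. With these backgrounds at the adjusted threshold, a share of 0 of 38 is close to that of all genes. The log2 fold changes ranged from -0.46 (HRK) to 0.32 (BIK), and the median was 0.01 against 0.00 over all tested genes.

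A miss of the threshold does not show equal levels, and the 95% intervals differed in width. They were -0.22 to -0.01 for BCL2L1, -0.09 to 0.25 for BAX, -0.05 to 0.21 for PMAIP1, -0.02 to 0.23 for TNFRSF10B and -0.87 to 0.52 for TNFSF10. CYCS, whose level rose in both comparisons with control, had the smallest adjusted p, with 0.15 ± 0.05 (adjusted p = 0.139). Its adjusted p was 0.0157 without UVA and CT replicate 1, which had the lowest CYCS level of its group, and 0.0180 without the filter on low counts.

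The libraries of UVA and of UVA and CT did not overlap for some members. BID, BIK, TNFRSF10A and TRADD were higher in every UVA and CT library, which is 10.5% of the tested members against 9.77% of all tested genes. BBC3, CASP10, CASP2, CASP4, CFLAR, HRK and MCL1 were lower in every UVA and CT library, which is 18.4% against 9.01%. HRK, a BH3-only gene best known from neurons, was at 7.51, 5.62 and 7.82 CPM in the control libraries, 9.11, 7.61 and 7.87 CPM in the UVA libraries and 6.73, 6.28 and 4.90 CPM in the UVA and CT libraries, and its log2 fold change was -0.46 ± 0.16 (adjusted p = 0.174). BIK, a BH3-only gene of the endoplasmic reticulum, was at 5.56, 7.03 and 8.70 CPM in the control libraries, 6.94, 7.06 and 6.49 CPM in the UVA libraries and 8.12, 7.42 and 9.94 CPM in the UVA and CT libraries, and its log2 fold change was 0.32 ± 0.16 (adjusted p = 0.396). TRADD had 0.21 ± 0.13 (adjusted p = 0.526).

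**Figure D4:**
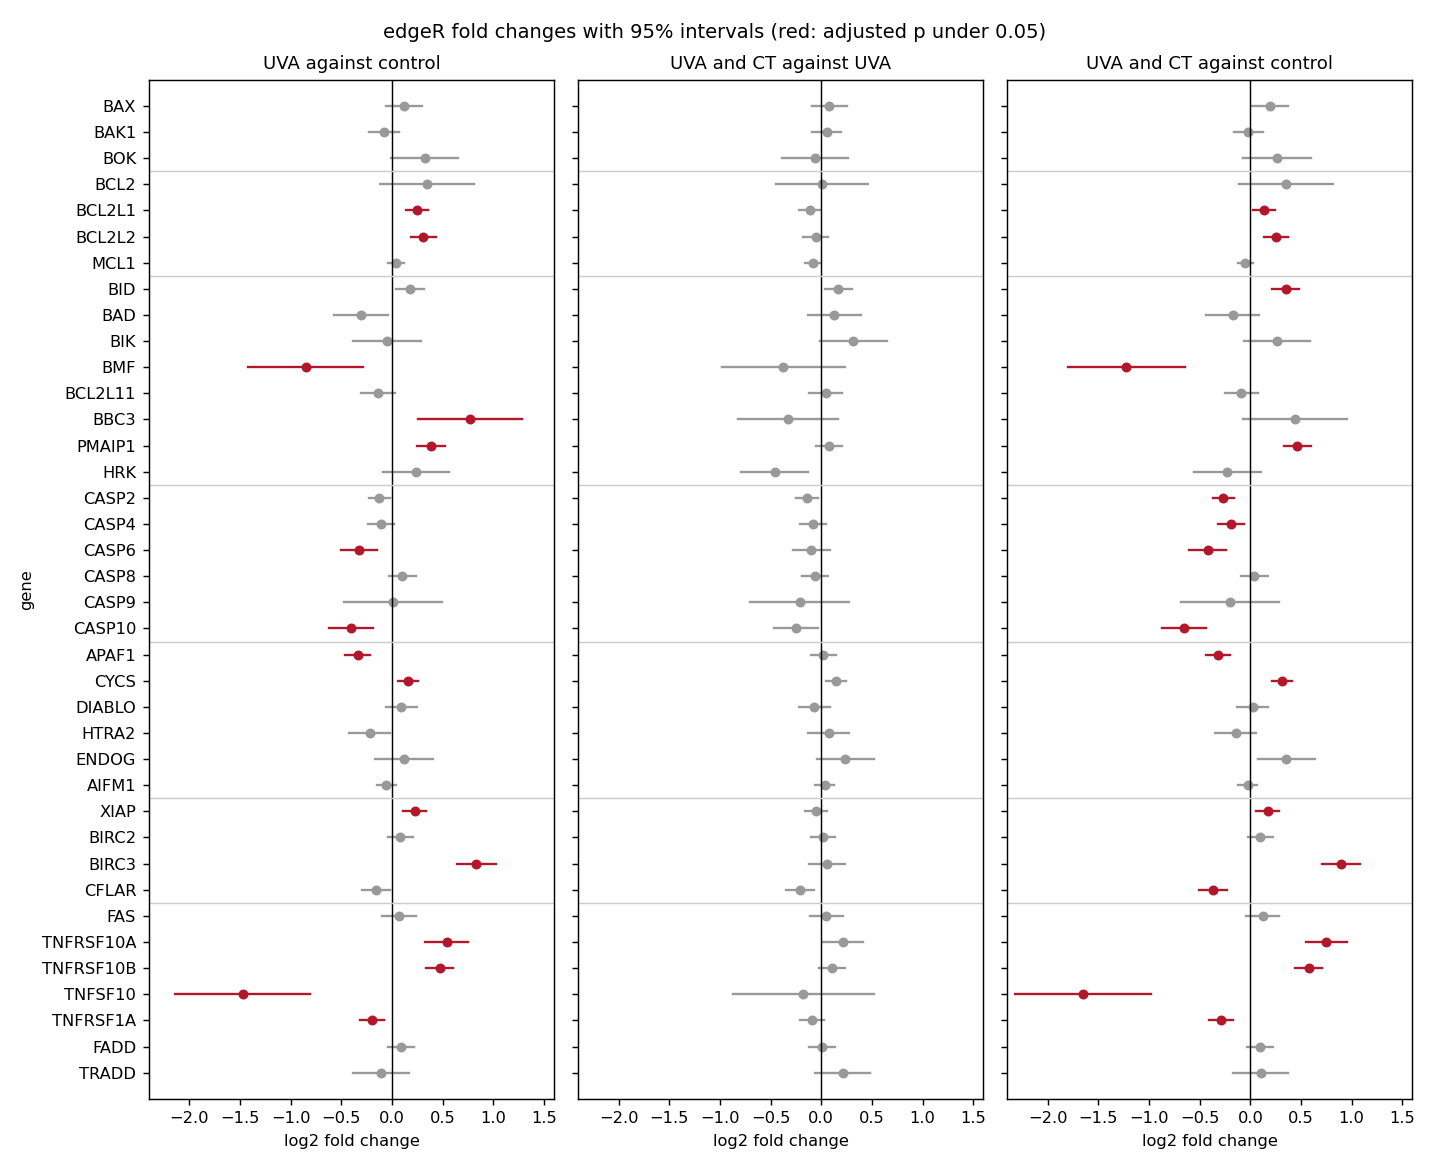
Log2 fold change (horizontal axis, dots) with its 95% interval (lines) for the 38 tested members, by role, in the 3 comparisons; red marks an adjusted p under 0.05. The outer panels hold 15 and 18 red members and the middle panel, UVA and CT against UVA, holds none, its dots lying between -0.46 and 0.32.

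Other genes of these pathways are given with their log2 fold change in parentheses. Their lists are small and were chosen with earlier results of these data known. Of all tested genes, 10.5% rose and 10.6% fell after UVA, and 15.7% and 14.2% after UVA and CT. In UVA and CT against UVA the shares were 0.944% and 0.614%. The mitophagy receptor gene BNIP3, a BCL2 relative induced by hypoxia, was called in the comparison of UVA and CT with UVA (1.15 ± 0.10, adjusted p = 1.91e-07) as well as against control (1.47 ± 0.10, adjusted p = 3.13e-09), and it rose after UVA (0.32 ± 0.11, adjusted p = 0.0347). Of the 5 tested genes of this list of 8, 1, 1 and 2 rose in UVA against control, UVA and CT against UVA, and UVA and CT against control, and none fell. BNIP3L, its closest relative, rose after UVA and CT (0.35 ± 0.06, adjusted p = 0.000203). Among the other caspases and execution substrates, CASP1, the inflammasome caspase, fell in both comparisons with control (-0.24 ± 0.08, adjusted p = 0.0439 for UVA, and -0.53 ± 0.08, adjusted p = 9.47e-05 for UVA with CT), and DFFA, the inhibitor of the apoptotic nuclease, rose after UVA and CT (0.20 ± 0.06, adjusted p = 0.0226). Of 3 tested other IAP genes, NAIP (-0.88 ± 0.22, adjusted p = 0.00635) and BIRC5, the survivin gene of dividing cells (-0.13 ± 0.04, adjusted p = 0.0453), fell after UVA, and BIRC6 after UVA and CT (-0.11 ± 0.04, adjusted p = 0.0482).

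Of 9 tested TNF superfamily and complex genes, 2 rose and 1 fell after UVA, and 5 rose and 1 fell after UVA and CT. Beside these counts and those of the NF-kappaB genes below, 10.5% of all tested genes rose and 10.6% fell after UVA. After UVA and CT the shares were 15.7% and 14.2%. TNFAIP3, which encodes the ubiquitin-editing brake A20, rose in both (0.93 ± 0.22, adjusted p = 0.0194 after UVA, and 1.20 ± 0.22, adjusted p = 0.00372 after UVA and CT), and so did the TWEAK receptor gene TNFRSF12A (0.53 ± 0.15, adjusted p = 0.0385 after UVA, and 0.61 ± 0.15, adjusted p = 0.0151 after UVA and CT). RIPK1, the kinase gene at the branch of survival and death, fell in both (-0.18 ± 0.06, adjusted p = 0.0304 after UVA, and -0.21 ± 0.06, adjusted p = 0.00998 after UVA and CT). The necroptosis pore gene MLKL rose after UVA and CT (0.32 ± 0.07, adjusted p = 0.00177). Of the 11 NF-kappaB genes, NFKB2 (0.85 ± 0.09, adjusted p = 9.95e-06) and RELB (1.13 ± 0.20, adjusted p = 0.000469), the subunits of the noncanonical pathway, rose and REL (-0.50 ± 0.09, adjusted p = 0.00479) fell after UVA, and after UVA and CT 4 rose and 1 fell.

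Of 14 upstream regulators of BH3-only and death receptor genes, 6 rose and 2 fell after UVA, and 6 rose and 3 fell after UVA and CT. The shares of all tested genes were 10.5% and 10.6% after UVA, and 15.7% and 14.2% after UVA and CT. DDIT3, the gene of the stress factor CHOP, known as an activator of TNFRSF10B, rose after UVA (0.90 ± 0.09, adjusted p = 2.52e-06) and was lower in UVA and CT than in UVA (-0.62 ± 0.09, adjusted p = 0.000328). DDIT3 remained higher in UVA and CT than in control (0.28 ± 0.09, adjusted p = 0.0268). TNFRSF10B was at 0.11 ± 0.06 (adjusted p = 0.496) in UVA and CT against UVA. A link between DDIT3 and TNFRSF10B in these cells was not tested. ATF4, which acts upstream of CHOP, rose after UVA (0.56 ± 0.05, adjusted p = 3.32e-06), and TRIB3, their target, rose as well (1.06 ± 0.13, adjusted p = 0.000602). TP73, a transcription factor gene, fell (-1.19 ± 0.20, adjusted p = 0.000364). SP1, whose protein binds GC boxes, was lower in UVA and CT than in UVA (-0.21 ± 0.05, adjusted p = 0.0295). A link between SP1 and PMAIP1 or any other member was not tested.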

How the data were processed

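The 3 groups of 3 HaCaT libraries were measured by RNA sequencing. The authors deposited whole-number counts per gene, not normalized. According to the submitters' processing notes, fastp 0.23.2, bcl2fastq and GRCh38 were used. Not given in the sources used here are the aligner, counter, annotation and strandedness. Here, genes were filtered by edgeR's filterByExpr for the 3 groups, scaled by TMM and tested by edgeR's quasi-likelihood test (robust) in 1 fit of all 9 libraries, with Benjamini-Hochberg adjustment over 15154 genes and a threshold of 0.05. The SE is the absolute log2 fold change over the square root of F, and 95% intervals use the t distribution. CPM is scaled by TMM. Levels per kb and positions use GENCODE exons, and promoters are RefSeq windows found for 32 of 40 members. The RefSeq and GENCODE starts of a gene can differ, as they do for the 3 printed promoters. The members and lists were chosen with earlier results of these data known. Members called in any comparison, and BAX, BAK1, BCL2, BCL2L1 and MCL1, are described by library, and up to 4 genes are named per other list and comparison. Alternatives were DESeq2, limma-voom, RLE or library-size scaling, filters, a fit of the compared groups alone, a replicate block, each library left out, and stricter thresholds. The procedure was tested on simulated data. Some genes of the other lists are not reported here. Software comprised edgeR 4.0.16, DESeq2 1.42.0 and limma 3.58.1 in R 4.3.3. Counts of 9 libraries held 16390289 to 21971215 each, which leaves BCL2, BBC3, BMF and CASP9 with wide intervals.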

Additional observations from a re-analysis of the deposited data

How the results depend on the processing

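Of 33 calls of members in a comparison, 22 were kept under all 17 alternatives with the same threshold and 11 were lost under at least 1, and of 36 comparisons without a call among the 23 members described by library, 4 gained one. No called direction was reversed by an alternative. With a fold change over 1.5 required, 2 members were higher and 2 lower in UVA against control (1.99% and 2.19% of all tested genes), and 2 higher and 3 lower in UVA and CT against control (2.55% and 3.56%). At an adjusted p under 0.01, 7 members were higher and 2 lower in UVA against control (5.62% and 5.78% of all). In UVA and CT against control 7 were higher and 8 lower at this threshold (9.71% and 8.50% of all). Without the filter on low counts, 1 member (CYCS) was higher in UVA and CT than in UVA, beside 1.13% of the 29141 genes then tested. With each library left out in turn, the count in UVA against control was 6 to 9 higher and 2 to 8 lower (6.82 to 11.1% and 6.93 to 10.9% of all), in UVA and CT against UVA 0 to 1 higher (0.401 to 1.55%), and in UVA and CT against control 7 to 11 higher and 8 to 9 lower (11.3 to 15.8% and 10.4 to 14.1%). Libraries with the same replicate number did not deviate together (correlations of -0.048 to 0.028 in 9 pairs, against -0.061 to 0.062 in 18 pairs of different numbers), so they were not treated as pairs. With a replicate block, 9 members were higher and 4 lower in UVA against control (9.10% and 9.39% of all), 0 and 0 in UVA and CT against UVA (0.739% and 0.376%), and 8 and 9 in UVA and CT against control (14.4% and 13.0%). BMF (adjusted p = 0.0663) and TNFSF10 (0.0522) lost the UVA call and BCL2L1 (0.0528) the UVA and CT call under the block. The cause of these losses was not tested. Members with few counts, such as BCL2 and CASP9, could not show small differences at this depth.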
